A study of Mus musculus with 16 samples.

Results

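Peripheral blood mononuclear cells (PBMCs) of C57BL/6N mice given a high-fat diet with L-NAME (HFD+L-NAME, n = 5) were compared with those of mice on regular chow (n = 5). These are 10 of the 16 RNA sequencing libraries of the study, taken by their group labels alone. The other 6 libraries came from mice on the same regimen that also received the nitro-fatty acid NO2-OA, nitro-oleic acid, over its last 4 weeks, and they entered the fit to estimate the spread between libraries. The regimen lasted 15 weeks and serves as a model of heart failure with preserved ejection fraction (HFpEF) with cardiometabolic syndrome. The comparison asks how the circulating immune cells of mice on that regimen differ from those of control mice. The labels give no genotype, sex or age beyond the strain, and nothing in them ties each library to an animal of its own, so that p-values measure the spread between libraries, which may be technical.

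L-NAME blocks nitric oxide synthases, including the endothelial enzyme that relaxes vessels, and together with a fat-rich diet it brings hypertension and metabolic stress to the same animal. Blood mononuclear cells are a mixture of B cells, T cells, natural killer (NK) cells, monocytes and dendritic cells. Per the labels the cells were taken from a Ficoll gradient, treated to lyse red cells, and frozen and thawed before RNA was made. Neutrophils and red cells should be largely lost in these steps, but some remain. In bulk RNA of such a mixture, fewer cells of a type and less RNA per cell cannot be told apart.

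The values are in TPM, a relative transcript abundance in which reads are scaled by gene length and sum to the same total in every library. Read totals recovered from them lay between 7.99 M and 15.3 M reads in chow and between 4.94 M and 12.6 M reads in HFD+L-NAME. Chow replicate 3 and HFD+L-NAME replicate 5 stood apart, with 22.1% and 15.1% of TPM in protein-coding genes against 39.1% to 49.8% in the other 8 libraries. Lymphocyte and monocyte markers were present in all 10 libraries as the label says, but so were genes of platelets, red cells and neutrophils. The list of resident peritoneal macrophage genes (18 genes, 6 of them passing the filter on low values) summed to between 475 and 977 TPM in 4 libraries, which were replicates 1 and 2 of chow and replicates 1 and 5 of HFD+L-NAME. It summed to between 19.3 and 88.5 TPM in the other 6. Those 4 libraries are the ones in which the macrophage receptor gene Timd4 reached 1 TPM. Each difference below was also computed without them (3 chow against 3 HFD+L-NAME). The same 4 libraries carry the highest library numbers of the 10, in a run apart from the other 6. Leaving out the Timd4 libraries thus also leaves out that run of numbers. Whether a change without them goes with macrophage genes or with library number was not tested.

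A gene was tested where it reached 1 TPM in at least 5 of the 16 libraries, which held for 16365 genes, and a difference is given as the log2 of TPM + 1 in HFD+L-NAME minus that in chow, with its standard error. With limma and Benjamini-Hochberg adjustment, 1 gene fell (0.00611% of those tested) and 0 rose (0.0%) at an adjusted p under 0.05. At an unadjusted p under 0.05, 448 genes were lower (2.74%) and 31 higher (0.189%). The gene that fell, Gm23054 (ENSMUSG00000064738), is a small nuclear RNA model. Its level in chow replicates 1 to 5 was 32.5, 54.4, 33.6, 23.7 and 14.7 TPM, and in HFD+L-NAME it was 16.5 TPM in replicate 1 and listed at 0 in replicates 2 to 5 (-4.09 ± 0.61, adjusted p = 0.00880). These levels rest on 2 to 6 reads in each chow library and 2 reads in HFD+L-NAME replicate 1. In the NO2-OA libraries, on the same regimen, it lay between 6.90 and 31.5 TPM. The next gene in order of p, AC122846.1, an unnamed model chosen after its values were seen, had an adjusted p of 0.343 and was likewise at 0 in HFD+L-NAME replicates 2 to 5. Every other gene described below had an adjusted p of 0.816 or more, so that none of them passed the test, and the values that follow describe direction, size and spread.

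Of all tested genes 82.1% lay below 0 and 17.9% above it, with a median of -0.29. When TPM was divided by each library's median of ratios the median was 0.02, and without the 4 Timd4 libraries it was 0.13. The split at an unadjusted p under 0.05 moved with the scaling, from 31 higher and 448 lower to 287 higher and 362 lower after the median of ratios and to 331 higher and 326 lower with voom on recovered reads. The list medians below are to be read against these 3 values of all tested genes. They are -0.29 in all libraries, 0.02 after the median of ratios and 0.13 without the Timd4 libraries. With 1 library left out, the median of all tested genes lay between -0.43 (chow replicate 3) and -0.12 (HFD+L-NAME replicate 5). The number of lower genes also moved with single libraries. It was 235, 282 and 955 without chow replicates 1, 2 and 3, and 772, 217, 1350 and 294 without HFD+L-NAME replicates 2, 3, 4 and 5. The number of higher genes was 56 with chow replicate 4 left out and 84 when replicate 5 of HFD+L-NAME was left out.

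On unscaled TPM, the antibody genes Igha and Jchain did not overlap between the groups. Igha (ENSMUSG00000095079), the constant region of the IgA heavy chain, stood at 6.70, 36.7, 13.0, 33.6 and 13.1 TPM in chow replicates 1 to 5. In HFD+L-NAME replicates 1 to 5 it stood at 4.90, 6.34, 4.26, 5.39 and 0.476 TPM. Every HFD+L-NAME library was below every chow library, although chow replicate 1 lay only just above HFD+L-NAME replicate 2. The mean was 20.6 ± 13.5 TPM (SD, n = 5) in chow and 4.27 ± 2.26 TPM (n = 5) in HFD+L-NAME, a log2 difference of -1.97 ± 0.46 (limma adjusted p = 0.816). Without the 4 Timd4 libraries the difference was -1.59, and without HFD+L-NAME replicate 5, the lowest library, it was -1.56. Read numbers ranged from 160 to 783 in chow and from 10 to 115 in HFD+L-NAME. The NO2-OA libraries spanned 3.86 to 14.1 TPM.

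Jchain (ENSMUSG00000067149), the joining chain that links IgA and IgM monomers into polymers, was at 1.25, 6.22, 3.13, 4.16 and 1.61 TPM in chow replicates 1 to 5. The HFD+L-NAME values were 0.725, 0.859, 0.724, 1.03 and 0.152 TPM. The groups again did not overlap, and the difference was -1.23 ± 0.31 (limma adjusted p = 0.816), with -1.03 without the Timd4 libraries. The reads behind it were few, 28 to 125 in chow and 3 to 16 in HFD+L-NAME. Across the tested genes 18 were lower in HFD+L-NAME with no overlap (0.11%) and 0 were higher (0.0%). In the exact permutation of 5 against 5 libraries, a share of 0.00794 of splits separates the groups in either direction. The share of genes that separated was below that, so that lack of overlap alone does not set a gene apart. Beside Igha and Jchain, the only other protein-coding gene among the 18 was Prrt1, a proline-rich transmembrane protein chosen after its values were seen (-0.88 ± 0.26, limma adjusted p = 0.816). The remaining 15 were 12 processed pseudogenes and 3 noncoding or unclassified models.

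The separation of Igha and Jchain depended on the scale. After division by the median of ratios, Igha in chow replicate 1 (4.30 TPM) lay under that in replicate 3 of HFD+L-NAME (7.66 TPM), so that the groups overlapped, and so did those of Jchain and Prrt1. On TPM rescaled to the protein-coding total of each library, Igha and Jchain still did not overlap and Prrt1 did. The log2 difference itself was similar on the median of ratios, at -1.70 for Igha and -1.05 for Jchain.

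**Figure D1:**
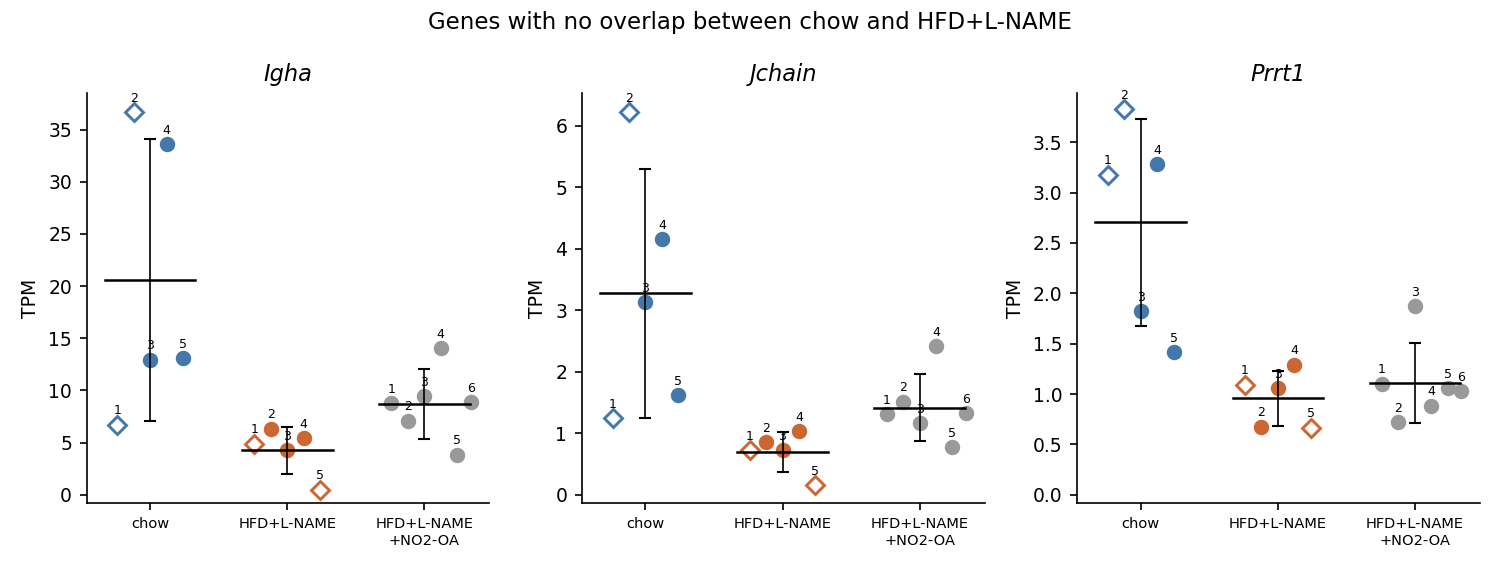
TPM (y axis) of Igha, Jchain and Prrt1 in each library of the 3 groups (x axis), with the replicate number beside each point, the group mean as a line and the SD as a bar. Open diamonds are the 4 libraries with Timd4 at 1 TPM or more. For Igha the 5 HFD+L-NAME libraries lie between 0.476 and 6.34 TPM, all below the 5 chow libraries.

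Other heavy chain genes overlapped between the groups. Ighm, the IgM heavy chain of naive B cells, ranged from 307 to 1831 TPM in chow and from 374 to 1467 TPM in HFD+L-NAME. Ighd, the IgD chain of the same cells, ranged from 70.7 to 673 and from 61.8 to 367 TPM. The IgG chain Ighg2b, chosen after its values were seen, ranged from 0.734 to 3.73 and from 1.18 to 2.96 TPM. Ighg1, another IgG chain chosen in the same way, lay in the direction of Igha, at 0.432 to 2.41 TPM in chow (mean 1.13 ± 0.814, SD, n = 5) and 0.0490 to 0.595 TPM in HFD+L-NAME (mean 0.358 ± 0.206, n = 5). Igha took 0.410% to 3.28% of all heavy chain constant region TPM in chow and 0.0806% to 0.913% in HFD+L-NAME, ranges that overlap. Of the 8 tested genes of the plasma cell list 7 lay below 0, beside 82.1% of all tested genes. Their median of -0.21 was not lower than the -0.29 of all tested genes. It was 0.13 beside 0.02 on the median of ratios. Without the Timd4 libraries it was 0.11 beside 0.13, with 5 of 8 above 0. Only Igha and Jchain among the 8 had an unadjusted p under 0.05. The transcription factors Xbp1 and Prdm1 and the surface proteoglycan Sdc1, which mark antibody secretion, overlapped fully. Prdm1 and Sdc1 were chosen after their values were seen, and Prdm1 ranged from 2.95 to 6.66 TPM in chow and from 1.98 to 10.6 TPM in HFD+L-NAME.

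T cell genes lay lower in HFD+L-NAME as a group. All 16 members of the T cell list were below 0, 13 of them at an unadjusted p under 0.05 (2.74% of all tested genes), with a median of -1.01 beside -0.29 for all tested genes. After the median of ratios the list median was -0.66 beside 0.02. Without the Timd4 libraries it was -0.34 beside 0.13, with 14 of 16 members below 0. Cd3g (ENSMUSG00000002033), a signalling subunit of the T cell receptor complex, was at 25.5, 29.2, 11.7, 25.3 and 9.35 TPM in chow replicates 1 to 5. In HFD+L-NAME it was at 5.71, 11.5, 5.86, 13.8 and 3.26 TPM. Chow replicates 3 and 5 lay inside the HFD+L-NAME range, while chow replicates 1, 2 and 4 lay above all of it. The difference was -1.25 ± 0.39 (limma adjusted p = 0.816) and -0.48 without the Timd4 libraries.

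Trbc2, the second constant region of the receptor beta chain, was at 283, 297, 119, 259 and 105 TPM in chow and at 80.4, 126, 82.3, 152 and 47.9 TPM in HFD+L-NAME, by replicate. Chow replicates 3 and 5 again overlapped the other group (-1.09 ± 0.43). Thy1, a surface glycoprotein of all mouse T cells, differed by -1.17 ± 0.41, and Cd96, an adhesion receptor of T and NK cells, by -1.10 ± 0.38. Cd8b1, the beta chain of the CD8 coreceptor, differed by -1.27 ± 0.43. Lef1, a transcription factor of naive T cells, differed by -1.10 ± 0.40. Dapl1, a gene of naive T cells whose role there is less well defined, was at 22.9, 29.6, 9.27, 22.1 and 7.58 TPM in chow and at 4.86, 8.77, 2.80, 15.1 and 1.58 TPM in HFD+L-NAME (-1.47 ± 0.46). Lcn4, a lipocalin, and Apol7e, of the apolipoprotein L family, had small p-values too, at -1.15 ± 0.36 and -1.10 ± 0.37. Each of these 8 genes kept its direction without the Timd4 libraries, at between -0.65 and -0.35.

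Rearranged receptor segments, grouped by name after values were seen, lay in the same direction. Of 83 tested Trav segments, which encode the variable part of the alpha chain, 81 lay below 0 and 28 (33.7%) were lower at an unadjusted p under 0.05. All 18 tested Trbv segments of the beta chain lay below 0, 10 of them (55.6%) at that threshold. Summed over segments, Trav reached 381, 394, 120, 340 and 131 TPM in chow replicates 1 to 5 and 107, 186, 87.4, 243 and 48.2 TPM in HFD+L-NAME. The median difference of Trav segments was -0.68 in all libraries and -0.09 without the Timd4 libraries. That of Trbv segments was -0.91 and -0.14. Of 100 Ighv segments, the variable parts of the immunoglobulin heavy chain, 79 lay below 0 and 2 (2.0%) were lower at that threshold. The shares for Ighv are near those of all tested genes, of which 82.1% lay below 0 and 2.74% were lower at that threshold, while those for Trav and Trbv are above them.

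NK cell genes lay lower in HFD+L-NAME too. All 15 tested list members lay below 0, with a median of -0.99, beside 82.1% below 0 and a median of -0.29 for all tested genes. At an unadjusted p under 0.05, 11 of the 15 were lower, beside 2.74% of all tested genes. All 15 were also below 0 without the Timd4 libraries, with a median of -0.42 beside 0.13. The libraries were not ordered as for T cells. Relative to all tested genes, the NK list score of chow replicate 1 was -0.03 and that of HFD+L-NAME replicate 2 was 0.47, where the T cell scores were 0.56 and -0.27. Gzma (ENSMUSG00000023132), a granzyme of cytotoxic granules, was at 30.3, 66.6, 15.4, 57.6 and 40.2 TPM in chow replicates 1 to 5. In HFD+L-NAME it was at 5.51, 39.7, 17.5, 10.8 and 4.33 TPM. HFD+L-NAME replicate 2 was high, near chow replicate 5, and the other 4 lay below all chow libraries but replicate 3. The difference was -1.62 ± 0.50 (limma adjusted p = 0.816), or -2.04 without HFD+L-NAME replicate 2 and -0.72 without the Timd4 libraries.

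Klra4, a Ly49-type receptor that activates NK cells, was at 6.55, 11.0, 2.39, 12.9 and 6.11 TPM in chow and at 0.587, 8.48, 1.36, 1.75 and 0.765 TPM in HFD+L-NAME. The same HFD+L-NAME replicate 2 stood above the other 4 (-1.49 ± 0.43). The Ly49 genes are a family of near-identical copies, so that its reads may be split between members. Nkg7, a granule membrane protein of cytotoxic cells, differed by -1.11 ± 0.43, the NK receptor chain Klrd1 by -1.20 ± 0.43 and Il2rb, the interleukin-2 and interleukin-15 receptor chain, by -0.99 ± 0.42, or -0.65 without HFD+L-NAME replicate 5. The chemokine Ccl5 of cytotoxic lymphocytes differed by -0.99 ± 0.40. Cxcr3, a receptor that guides effector T and NK cells to inflamed tissue, differed by -0.86 ± 0.36.

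**Figure D2:**
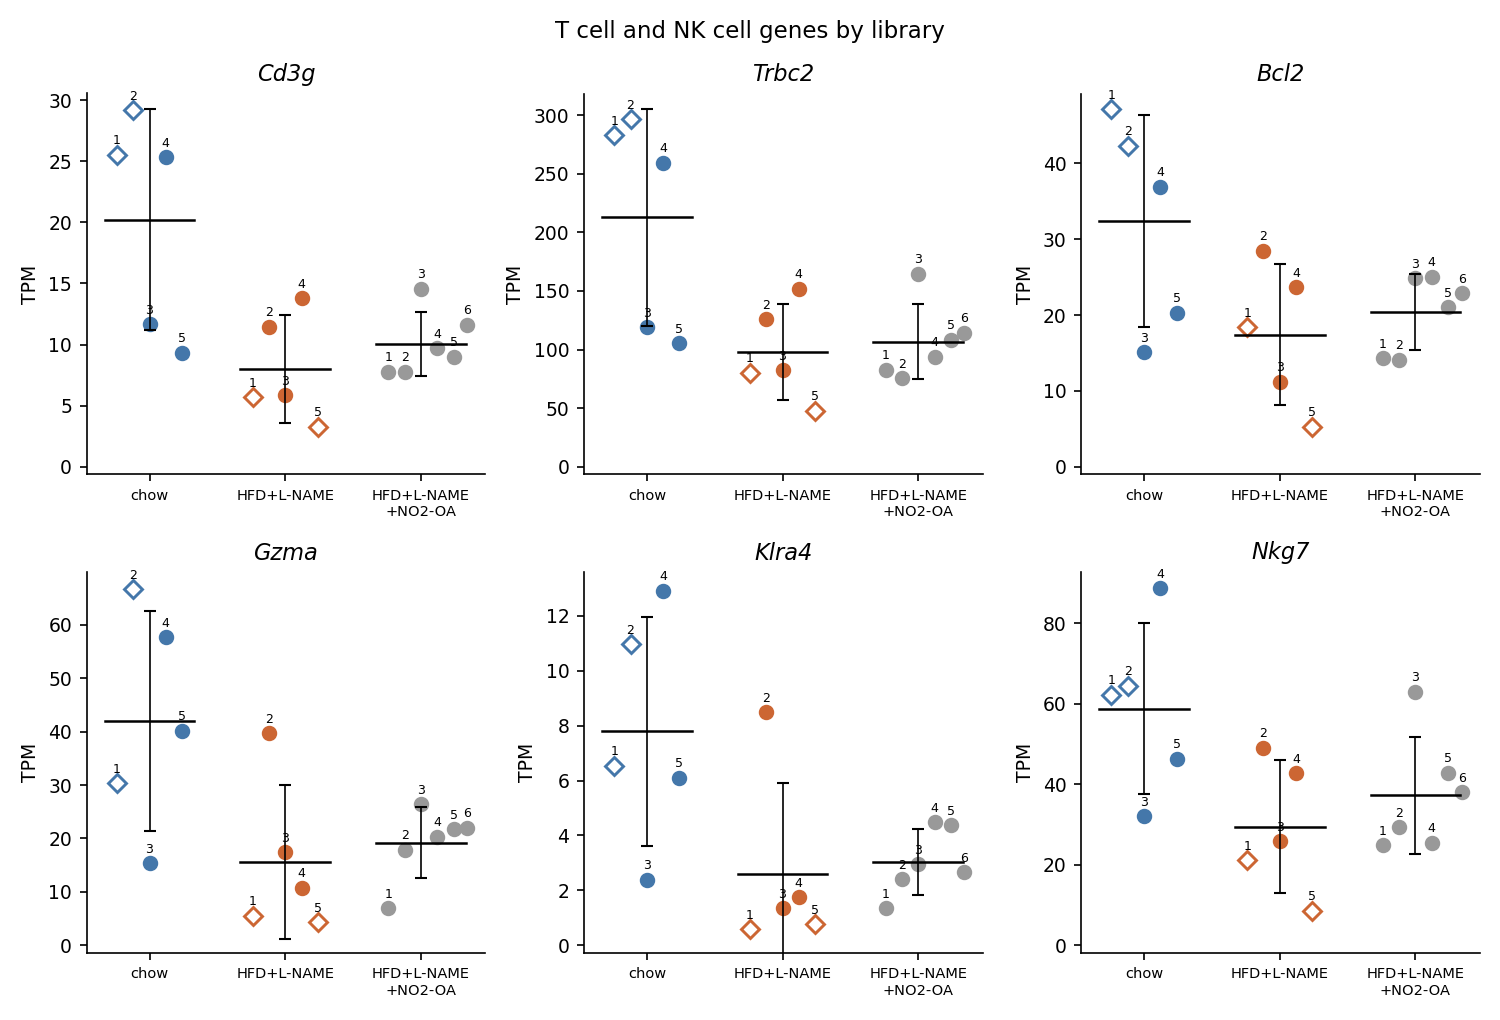
TPM (y axis) of 3 T cell genes (top) and 3 genes of NK and cytotoxic cells (bottom) in each library (x axis, by group), with replicate numbers, group means as lines and SD bars that are cut at the lower edge. Open diamonds are the Timd4 libraries. Chow replicates 1, 2 and 4 are high for Cd3g and Trbc2, and HFD+L-NAME replicate 2 is the highest of its group for Gzma and Klra4.

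On the median of ratios other genes separated the groups. There 31 genes were lower in HFD+L-NAME with no overlap (0.189%) and 30 higher (0.183%). The sum of these shares was below the share of 0.00794 of splits that separates the groups in either direction. Lack of overlap alone thus does not set these genes apart on this scale either. Those named here were chosen after their values were seen, except Bcl2. Bcl2 (ENSMUSG00000057329), the survival factor of resting lymphocytes, stood at 30.3, 28.2, 21.7, 26.3 and 22.0 scaled TPM in chow and at 18.6, 19.8, 20.2, 16.9 and 11.3 scaled TPM in HFD+L-NAME. Nfatc2, a calcium-regulated transcription factor of T cells, stood at 8.77, 8.95, 8.56, 7.67 and 7.03 in chow and at 6.73, 6.09, 6.51, 5.74 and 5.90 in HFD+L-NAME on that scale. Skap1, an adaptor that couples the T cell receptor to integrins, ranged from 7.21 to 11.2 in chow and from 4.89 to 6.82 in HFD+L-NAME. For all 3 genes the lowest chow library lay just above the highest HFD+L-NAME library. On unscaled TPM all 3 overlapped, with differences of -0.93 ± 0.42 for Bcl2, -0.69 ± 0.36 for Nfatc2 and -0.97 ± 0.37 for Skap1. Without the Timd4 libraries these were -0.18, -0.19 and -0.40, and Bcl2 was at -0.59 without HFD+L-NAME replicate 5. Among the 30 higher genes were Sp140, a nuclear body protein of leukocytes, at 27.9 to 31.7 scaled TPM in chow and 31.8 to 40.1 in HFD+L-NAME, and Zfand5, a zinc finger protein, at 13.3 to 21.2 and 23.2 to 45.9.

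B cell genes were not set apart from genes at large. All 16 tested members of the B cell list lay below 0, but with a median of -0.39 beside -0.29 for all genes, and with 0 at an unadjusted p under 0.05. Their median was 0.01 after the median of ratios and 0.19 without the Timd4 libraries, where 14 of 16 lay above 0. Leaving out 1 library gave -0.75 (chow replicate 3) to -0.15 (HFD+L-NAME replicate 3). Cd79a, a signalling subunit of the B cell receptor, was at 552, 750, 138, 413 and 292 TPM in chow and at 336, 437, 133, 402 and 228 TPM in HFD+L-NAME. The groups overlapped throughout (-0.39 ± 0.49, and -0.74 to -0.12 without 1 of those same libraries), and the sign turned to 0.01 on the median of ratios. The genes of MHC class II presentation showed the same shift, all 11 below 0 with a median of -0.47 beside -0.29 for all tested genes, against -0.07 beside 0.02 on the median of ratios.

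Genes of classical monocytes lay higher with all 10 libraries, by an amount that depended on single libraries. Of 11 tested members 9 lay above 0, with a median of 0.39 in all libraries, 0.78 on the median of ratios and 0.55 without the Timd4 libraries, beside -0.29, 0.02 and 0.13 for all tested genes, and 0 had an unadjusted p under 0.05. The median was 0.02 with chow replicate 3 left out, beside -0.43 for all tested genes. It was 0.10 beside -0.31 when replicate 1 of HFD+L-NAME was left out. Lyz2, the lysozyme of monocytes and granulocytes, was at 1501, 1598, 450, 1187 and 1765 TPM in chow, by replicate. In HFD+L-NAME it was at 1967, 1971, 2093, 1172 and 1744 TPM. Chow replicate 3 was low and HFD+L-NAME replicate 4 sat among the chow libraries (0.57 ± 0.50, or 0.23 without chow replicate 3). Chil3, a chitinase-like protein of inflammatory monocytes, differed by 0.80 ± 0.62, or 0.23 with chow replicate 3 left out and 0.46 when replicate 4 of HFD+L-NAME was left out. Vcan, the proteoglycan versican, differed by 0.70 ± 0.53, with 0.41 with chow replicate 3 left out and 0.37 when replicate 4 of HFD+L-NAME was left out. Ly6c2, the surface marker that defines these cells, was not higher, at 12.2 to 33.95 TPM in chow and 8.28 to 29.2 TPM in HFD+L-NAME. F10, coagulation factor X, which macrophages also make, was at 14.0, 16.5, 5.07, 8.94 and 20.2 TPM in chow and at 23.9, 15.5, 30.9, 17.8 and 15.6 TPM in HFD+L-NAME (0.72 ± 0.39, or 0.45 without chow replicate 3 and 0.98 without the Timd4 libraries).

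Granule proteins of maturing neutrophils had large differences upward. Ltf (ENSMUSG00000032496), Ngp (ENSMUSG00000032484) and Camp (ENSMUSG00000038357) encode lactoferrin, neutrophilic granule protein and the precursor of the antimicrobial peptide cathelicidin. All 3 are made in the bone marrow as secondary granules form and are largely silent in mature blood neutrophils. They lie on chromosome 9 within 1.17 Mb, and in the marrow their transcription depends on factors of the C/EBP family. Their promoters are shown because the 3 genes had similar values across the libraries. Each line gives 250 bases before the start of the gene, 5′ to 3′ on the gene's own strand, from RefSeq (GRCm38.p6). Capitals mark the letters TTGCNNAA, a core of C/EBP motifs, on either strand, which 9.57% of 32841 promoters of that length hold. Ngp held 2 matches, Ltf 1 and Camp 0.
Ltf (chr9:111019042-111019291, plus strand): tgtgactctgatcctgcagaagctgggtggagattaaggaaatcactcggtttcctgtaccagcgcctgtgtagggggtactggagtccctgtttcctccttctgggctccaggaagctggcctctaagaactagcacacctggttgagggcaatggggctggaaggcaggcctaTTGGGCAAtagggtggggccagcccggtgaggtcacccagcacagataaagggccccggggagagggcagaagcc
Ngp (chr9:110419558-110419807, plus strand): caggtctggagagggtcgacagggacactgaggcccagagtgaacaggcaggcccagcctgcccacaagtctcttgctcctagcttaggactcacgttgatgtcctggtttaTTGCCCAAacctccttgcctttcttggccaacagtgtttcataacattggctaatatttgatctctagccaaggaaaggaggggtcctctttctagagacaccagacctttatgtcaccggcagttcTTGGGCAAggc
Camp (chr9:109849457-109849706, minus strand): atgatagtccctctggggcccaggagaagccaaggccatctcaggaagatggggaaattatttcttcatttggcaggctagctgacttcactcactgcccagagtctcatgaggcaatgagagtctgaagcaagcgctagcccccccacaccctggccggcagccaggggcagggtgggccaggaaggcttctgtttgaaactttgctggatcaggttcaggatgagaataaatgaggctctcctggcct

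Ltf was at 0.479, 0.179, 1.95, 3.68 and 5.68 TPM in chow replicates 1 to 5 and at 34.6, 12.6, 6.02, 5.64 and 11.3 TPM in HFD+L-NAME. Only HFD+L-NAME replicate 4 was below the highest chow library, by a margin of hundredths of a TPM (2.15 ± 0.57, limma adjusted p = 0.816). Ngp was at 2.95, 0.110, 12.0, 15.5 and 24.9 TPM in chow and at 142, 46.4, 22.6, 22.6 and 54.8 TPM in HFD+L-NAME. Its lowest chow library, replicate 2, rested on 1 read (2.62 ± 0.73). Camp was at 1.04, 0, 2.69, 2.27 and 7.38 TPM in chow and at 51.3, 11.0, 6.57, 4.57 and 12.2 TPM in HFD+L-NAME (2.14 ± 0.62). For all 3 genes chow replicates 1 and 2 were the lowest libraries and HFD+L-NAME replicate 1 the highest, and these 3 are Timd4 libraries. Without all 4 Timd4 libraries, which also include HFD+L-NAME replicate 5, the differences were 0.93 for Ltf, 0.75 for Ngp and 0.77 for Camp. The part of the macrophage-containing libraries in the larger value was not tested.

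Of 13 genes on the immature neutrophil list 6 passed the filter on low values. All 6 lay above 0, beside 17.9% of all tested genes, with a median of 1.47 beside -0.29. Without the Timd4 libraries 5 of 6 lay above 0, beside 72.9%, with a median of 0.76 beside 0.13. Of the 6, Chil3 is also on the classical monocyte list and Lcn2, a lipocalin, on that of mature neutrophils. Of earlier primary granules, Elane and Mpo did not pass the filter, while the protease gene Prtn3 did. Mature neutrophil genes lay higher than genes at large in all libraries and lower without the Timd4 libraries. In all libraries 8 of 13 lay above 0, beside 17.9% of all tested genes, with a median of 0.27 beside -0.29. Without the Timd4 libraries 0 of 13 lay above 0, beside 72.9%, with a median of -0.78 beside 0.13. Leaving out 1 library gave -0.37 (chow replicate 1) to 0.92 (chow replicate 4), beside -0.20 and -0.23 for all tested genes. S100a9, a calprotectin subunit of mature neutrophils, was at 13.3, 256, 104, 1256 and 592 TPM in chow and at 620, 144, 116, 490 and 599 TPM in HFD+L-NAME. Chow replicate 4 was the highest and chow replicate 1 the lowest of all 10. Ngp per 100 TPM of S100a9 was 0.0430 to 22.2 in chow and 4.61 to 32.2 in HFD+L-NAME, so that the ratio overlapped as well.

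Metallothioneins, small proteins that bind zinc and copper and are induced by metals, glucocorticoids and oxidants, gave the other upward pair. Of 5 genes on that list 4 were tested, and Mt1 and Mt2 were the 2 with an unadjusted p under 0.05. Mt2 (ENSMUSG00000031762) was at 1.92, 1.61, 0.497, 1.40 and 0.218 TPM in chow and at 13.9, 0.993, 1.56, 1.98 and 25.6 TPM in HFD+L-NAME (1.50 ± 0.52). Mt1 (ENSMUSG00000031765) was at 9.91, 6.77, 2.59, 11.9 and 4.62 TPM in chow and at 31.2, 10.7, 5.10, 21.1 and 53.4 TPM in HFD+L-NAME (1.39 ± 0.51). The high libraries were HFD+L-NAME replicates 1 and 5 for both, which are the Timd4 libraries of that group, and the remaining 3 overlapped chow for Mt2. Chow replicates 1 and 2, the other Timd4 libraries, were not high for either gene. Without the Timd4 libraries the differences were 0.60 for Mt2 and 0.87 for Mt1, and Mt2 was at 0.94 without HFD+L-NAME replicate 5. The other 2 tested genes of the list were the zinc exporter Slc30a1 and Mtf1, the zinc-sensing transcription factor that drives both metallothionein genes. Both lay below 0, as did 82.1% of all tested genes. Without the Timd4 libraries all 4 tested genes of the list lay above 0, beside 72.9% of all tested genes.

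The promoters of this pair, which are neighbours on chromosome 8, are shown for the metal response elements through which Mtf1 acts. The lines follow the same layout, and capitals mark the core TGCNCNC on either strand. The core is short and 44.4% of promoters of that length hold it. Within these 250 bases Mt2 held 5 matches and Mt1 1. Bases past the listed start were not searched, so that these are not counts of all such elements of either gene.
Mt1 (chr8:94178839-94179088, plus strand): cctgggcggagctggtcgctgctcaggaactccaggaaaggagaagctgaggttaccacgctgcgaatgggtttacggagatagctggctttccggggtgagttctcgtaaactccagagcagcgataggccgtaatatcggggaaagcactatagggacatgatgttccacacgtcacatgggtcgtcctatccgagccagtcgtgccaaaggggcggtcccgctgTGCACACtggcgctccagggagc
Mt2 (chr8:94172368-94172617, plus strand): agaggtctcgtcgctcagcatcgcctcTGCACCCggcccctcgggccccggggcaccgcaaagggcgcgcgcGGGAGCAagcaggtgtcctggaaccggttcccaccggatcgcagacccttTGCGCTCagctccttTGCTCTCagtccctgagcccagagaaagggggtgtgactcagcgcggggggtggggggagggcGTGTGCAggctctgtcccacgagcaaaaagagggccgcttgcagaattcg

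**Figure D3:**
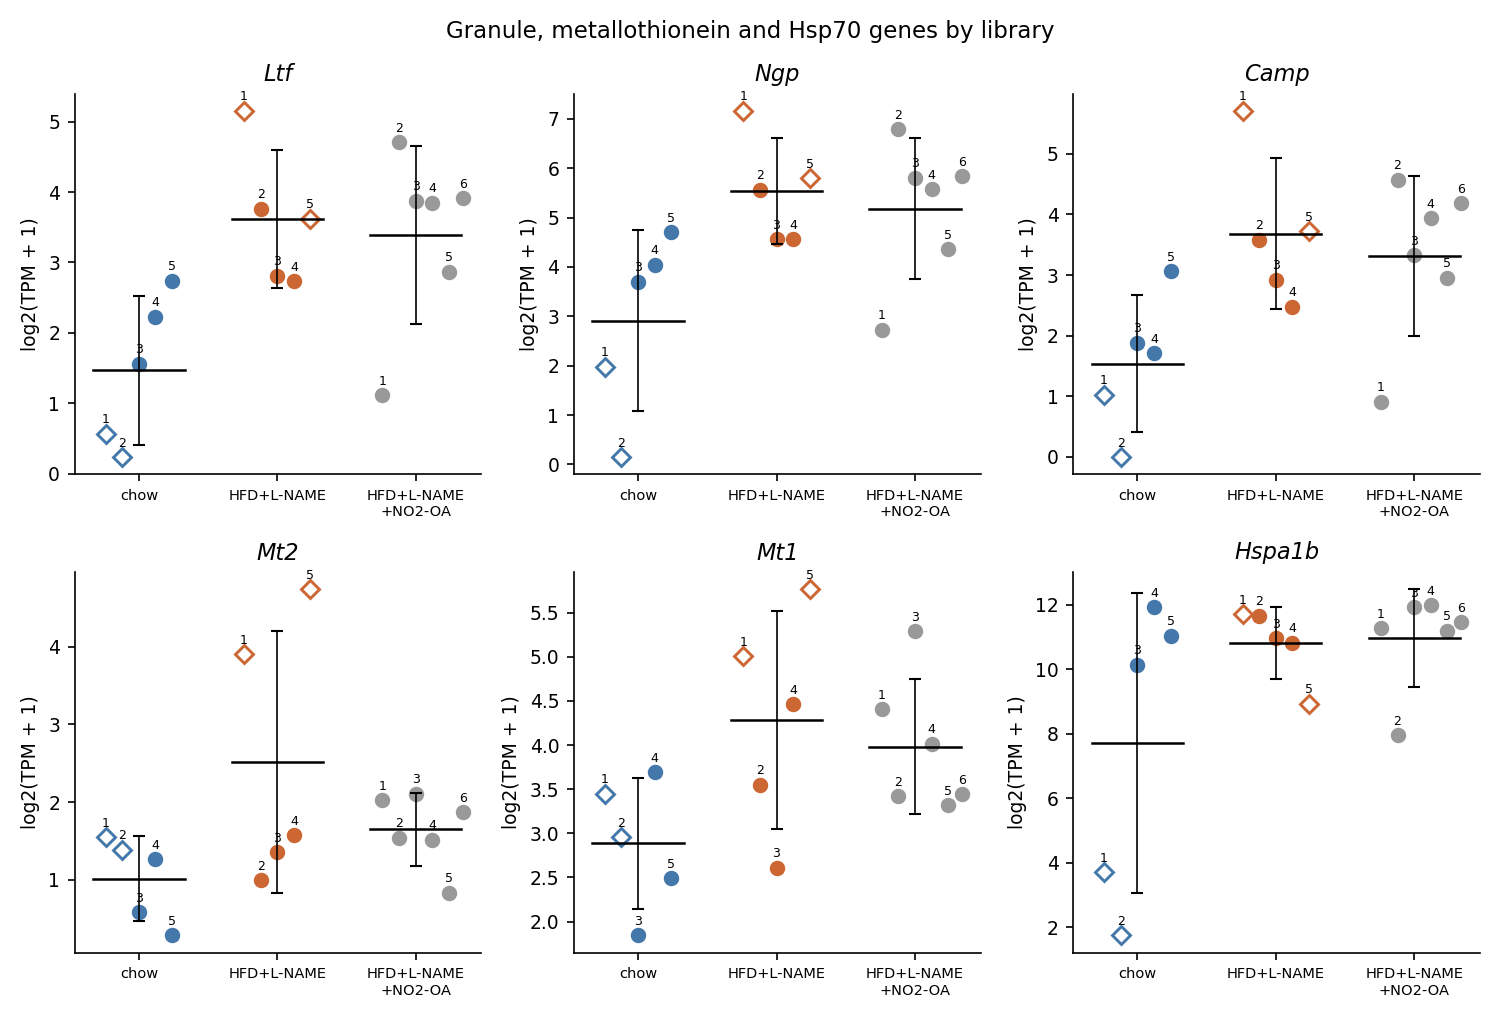
log2(TPM + 1) (y axis) of 3 neutrophil granule genes, 2 metallothionein genes and the heat shock gene Hspa1b in each library (x axis, by group), with replicate numbers, group means as lines and SD bars. Open diamonds are the Timd4 libraries. Chow replicates 1 and 2 are the lowest of the 10 libraries for Ltf, Ngp, Camp and Hspa1b, and HFD+L-NAME replicates 1 and 5 are the highest for Mt1 and Mt2.

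The heat shock genes showed a gap inside the chow group. Hspa1b (ENSMUSG00000090877), an inducible Hsp70 chaperone, was at 12.1 and 2.35 TPM in chow replicates 1 and 2 and at 1126, 3865 and 2109 TPM in chow replicates 3 to 5. In HFD+L-NAME it was at 3357, 3227, 1999, 1807 and 490 TPM. The HFD+L-NAME libraries thus lay within the upper 3 chow libraries apart from replicate 5, and chow replicates 1 and 2 stood far below (3.11 ± 1.33, or 1.62 without chow replicate 2 and 0.11 without the Timd4 libraries). Hspb1, a small heat shock protein, was at 0.478, 0.535, 17.1, 17.3 and 8.67 TPM in chow and at 38.6, 13.8, 12.2, 13.8 and 12.1 TPM in HFD+L-NAME. It showed the same pair of low chow libraries (1.54 ± 0.68, or -0.05 without the Timd4 libraries). Of 16 list members 14 lay above 0 with all libraries, with a median of 0.36 beside -0.29 for all tested genes, and 6 of 16 without the Timd4 libraries, with a median of -0.03 beside 0.13. The median was 0.04 without chow replicate 2, beside -0.21 for all tested genes.

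Platelet and red cell genes varied between libraries more than between groups. All 17 tested platelet genes lay above 0 with a median of 0.46 beside -0.29 for all tested genes, and of 0.96 beside 0.13 without the Timd4 libraries, with 0 at an unadjusted p under 0.05. The median turned to -0.06 when replicate 3 of HFD+L-NAME was left out, beside -0.18 for all tested genes. Leaving out chow replicate 1 gave 0.14 beside -0.20. Gp9, a subunit of the platelet receptor for von Willebrand factor, was at 146, 711, 363, 438 and 1741 TPM in chow and at 707, 1349, 3977, 658 and 119 TPM in HFD+L-NAME. HFD+L-NAME replicate 3 held the most and replicate 5 the least of all 10 (0.67 ± 0.92, or 0.089 with replicate 3 of HFD+L-NAME left out and 0.24 when chow replicate 1 was left out). Selp, the P-selectin that platelets expose on activation, differed by 0.93 ± 0.62, or 0.60 without HFD+L-NAME replicate 3. The platelet list took 1.27% ± 1.09 of TPM (SD, n = 5) in chow and 2.02% ± 2.07 (n = 5) in HFD+L-NAME (two-sided exact permutation test, p = 0.571, adjusted p = 0.686 over the 6 shares and counts tested).

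All 14 tested red cell genes lay above 0 too, with a median of 0.77 beside -0.29 for all tested genes, and of 0.38 beside 0.13 without the Timd4 libraries. The median was 0.13 when chow replicate 1 was left out, beside -0.20 for all tested genes. It was 0.35 beside -0.43 with chow replicate 3 left out and 0.33 beside -0.18 without HFD+L-NAME replicate 3. Hba-a1, an alpha globin, was at 249, 3556, 1008, 13218 and 8156 TPM in chow and at 24975, 4998, 10726, 2487 and 1975 TPM in HFD+L-NAME (1.22 ± 0.96, or 0.39 with chow replicate 1 left out and 0.69 when replicate 1 of HFD+L-NAME was left out). The groups overlapped over most of their range, with chow replicate 1 the lowest and HFD+L-NAME replicate 1 the highest. Haemoglobin genes took 3.22% ± 3.22 of TPM (SD, n = 5) in chow and 4.95% ± 4.52 (n = 5) in HFD+L-NAME (two-sided exact permutation test, p = 0.508, adjusted p = 0.686).

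**Figure D4:**
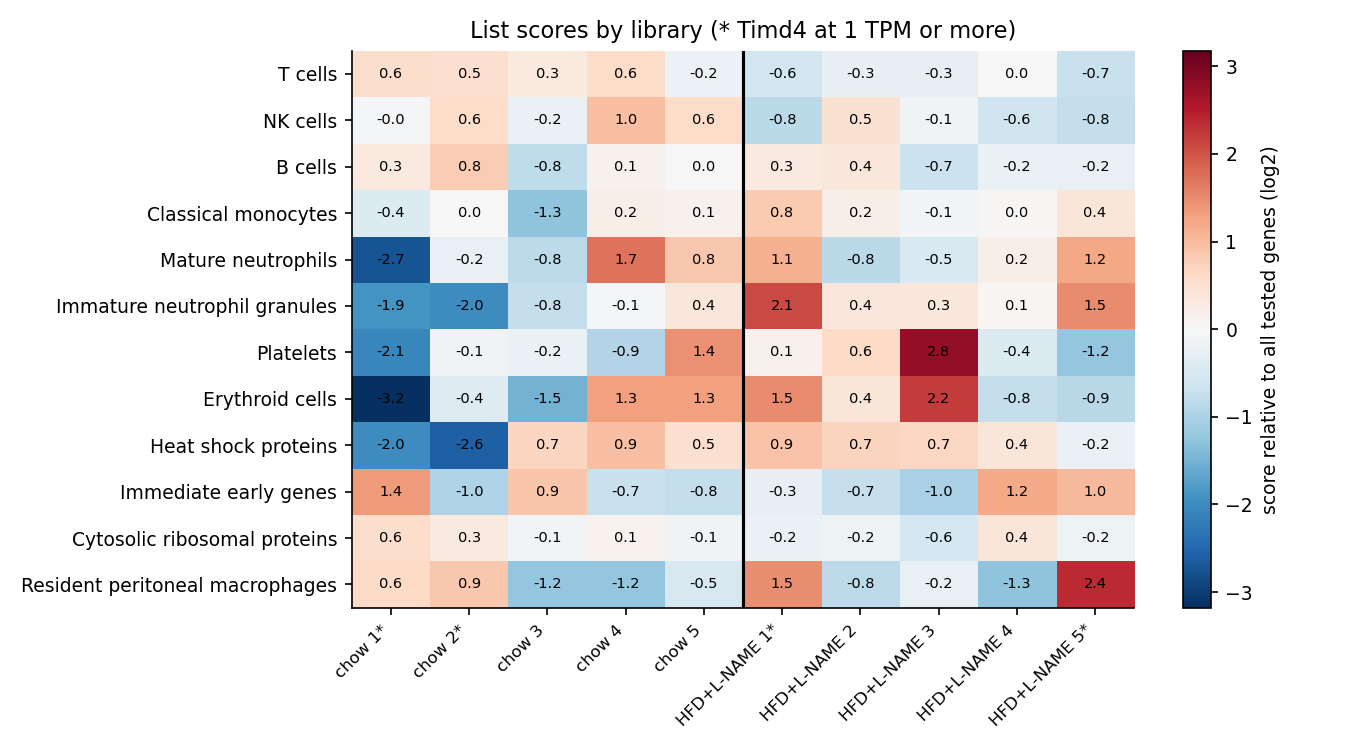
Mean over each list's tested genes of log2(TPM + 1), centred on the 10 libraries and given relative to all tested genes (colour and printed value, log2), for 12 lists (rows) in the 10 libraries (columns, chow left of the line, Timd4 libraries starred). The T cell row is positive in 4 of 5 chow libraries and above 0.1 in no HFD+L-NAME library, while the platelet, red cell and heat shock rows vary within both groups.

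The pathways that the regimen would be thought to touch showed no gene past the test. The counts and medians here stand beside 17.9% of all tested genes above 0 and a median of -0.29. For nitric oxide and cyclic GMP, 12 of 18 genes were tested, 7 lay above 0 (median 0.10) and 0 had an unadjusted p under 0.05. The synthases Nos1, Nos2 and Nos3, the targets of L-NAME, did not pass the filter on low values. The cyclic GMP phosphodiesterase Pde5a was at 7.07, 30.2, 14.3, 19.4 and 59.0 TPM in chow and at 21.1, 54.7, 113, 27.2 and 4.47 TPM in HFD+L-NAME, with its highest library in each group the same as for Gp9. Oxidative stress genes under the factor NRF2 (9 of 13 above 0, median 0.12), cholesterol genes (2 of 18, median -0.26) and fatty acid and PPAR target genes (2 of 15, median -0.12) had 0 members each at an unadjusted p under 0.05. Interferon-stimulated genes (7 of 18 above 0, median -0.11) and inflammasome genes (3 of 12, median -0.16) also had 0. On the median of ratios, the median was 0.44 for nitric oxide and cyclic GMP genes and 0.40 for NRF2 genes, beside 0.02 for all tested genes. There it was 0.05 for cholesterol, 0.19 for fatty acid and PPAR target, 0.19 for interferon-stimulated and 0.17 for inflammasome genes.

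Inflammatory cytokines and chemokines had 10 of 16 above 0 and 1 lower at an unadjusted p under 0.05, which was Ccl5. The list median was 0.10, beside -0.29 for all tested genes. Tnf, the tumour necrosis factor gene, chosen like Fos after its values were seen, was at 60.5, 4.59, 36.2, 5.99 and 3.08 TPM in chow and at 10.9, 5.27, 5.44, 57.3 and 31.4 TPM in HFD+L-NAME. Both groups held high and low libraries. The immediate early gene Fos was highest in the same pair of libraries as Tnf, with chow replicate 1 at 1274 TPM and replicate 4 of HFD+L-NAME at 1278 TPM, against 42.2 to 528 TPM in the other 8. Cytosolic ribosomal protein genes all lay below 0 (30 of 30, median -0.56 beside -0.29 for all tested genes), but 21 of 30 lay above 0 without the Timd4 libraries, with a median of 0.05 beside 0.13. Rps27a, a ribosomal protein fused to ubiquitin, illustrates this, at -0.83 ± 0.49 in all libraries and 0.03 without the Timd4 libraries.

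**Figure D5:**
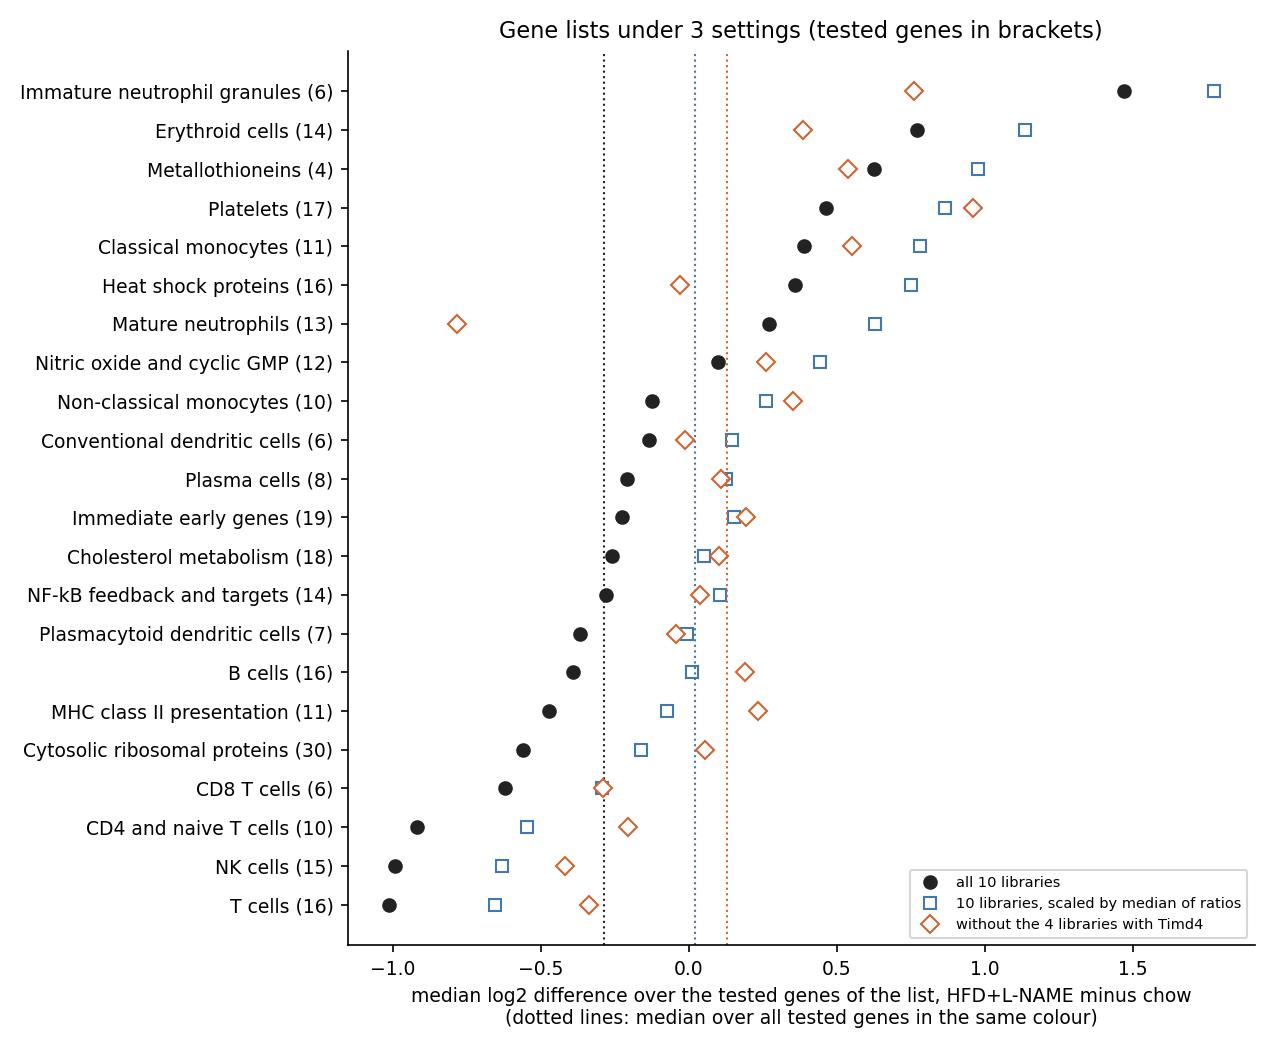
Median log2 difference, HFD+L-NAME minus chow (x axis), over the tested genes of 22 lists (rows, number of genes in brackets) in all 10 libraries (filled circles), after the median of ratios (squares) and without the 4 Timd4 libraries (diamonds), with dotted lines at the median of all tested genes in the matching colour. T cell and NK cell lists are lowest in all 10 libraries, and mature neutrophil and heat shock lists move from above 0 to below 0 without the Timd4 libraries.

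Processed pseudogenes, intronless copies of other genes, made up 11.1% of the tested genes but 190 of the 448 lower at an unadjusted p under 0.05. Of the 1818 tested, 10.5% were lower at that threshold, against 1.11% of the 10900 protein-coding genes, although the median difference of both types was close, at -0.37 and -0.30. Such copies share most of their sequence with the parent gene, so that their reads are uncertain.

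Without the 4 Timd4 libraries, 3 chow and 3 HFD+L-NAME libraries remained. Then 110 genes were higher (0.672%) and 123 lower (0.752%) at an unadjusted p under 0.05, and 2 genes passed the adjusted test, both lower (0.0122%). These were Gm23054 and AC122846.1. There 72.9% of genes lay above 0 and 27.1% below it. On that set 347 genes were higher with no overlap (2.12%) and 103 lower (0.629%), so that the balance of directions was the opposite of that in all 10 libraries.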

How the data were processed

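The deposited values are TPM per gene, made by the authors for 16 PBMC libraries. Per the submitters' processing notes bcl2fastq, Trim Galore, HISAT2 and featureCounts were used with the builds mm39 and hg38. Their versions and the annotation release are not given in the sources used here. Gene types came from matching 48486 of 51179 identifiers to GENCODE M21, and no gene positions are given other than those of the RefSeq promoters on GRCm38.p6. Genes with at least 1 TPM in at least 5 of 16 libraries were kept. Differences of log2(TPM + 1) were tested by limma (version 3.58.1, under R 4.3.3), letting the variance depend on the mean, with 1 coefficient per group and Benjamini-Hochberg adjustment over 16365 genes. A pseudocount of 1 understates the change of low genes. TPM steps gave whole reads within a tolerance of 0.001 for 100.0% of the tested genes, and 90.5% of the implied lengths lay within 1.5-fold of annotated ones. These reads gave the read numbers quoted and a voom fit. Fits were tested on simulated data. The smallest p that the exact permutation test of 5 against 5 libraries can give is 0.00794.

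The comparison and the 57 gene lists were chosen with earlier results of these data known. Genes were named by a rule. It took called genes, the 12 protein-coding genes of smallest p on each side, those without overlap of largest difference, and from each list the 3 members of smallest p and the 2 of highest level. Alternatives were another pseudocount, other filters, the 10 libraries alone, other scalings, voom, robust variance, a term for library numbers, a replicate block, and leaving out each library or the 4 with Timd4. The scales for overlap and the families grouped by name were chosen after seeing the data.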

Additional observations from a re-analysis of the deposited data

Results flagged for a closer look

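Some values stood apart from the other 4 of their group, by the gap to the nearest library over the whole range. Of 98 groups of values looked at, 8 had such a library, and chance flags about 1 in 20 groups, so that the number is near what chance gives. On log2(TPM + 1), HFD+L-NAME replicate 5 was low for Igha, at 0.56 against 2.40 to 2.88 in the others, and for Jchain, at 0.20 against 0.79 to 1.02. HFD+L-NAME replicate 1 was high for Gm23054 at 4.13 and for AC122846.1 at 2.95, with the other 4 at 0. It was also high for Hspb1, at 5.31 against 3.71 to 3.89. Chow replicate 4 was high for Il2rb, at 6.61 against 5.63 to 5.90. The share of TPM in protein-coding genes was low in chow replicate 3, at 22.1%, and in HFD+L-NAME replicate 5, at 15.1%.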

How the results depend on the processing

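The count of genes past the adjusted threshold was small under every setting tried. It was 1 as reported, 4 with the 10 libraries alone and 2 without the Timd4 libraries. It was 0 with no filter (202 higher and 989 lower at an unadjusted p under 0.05), on the median of ratios (287 and 362), on protein-coding TPM (17 and 317), with voom (331 and 326) and with robust variance (21 and 429). Leaving out 1 library gave 0 to 2, with 0 without each of HFD+L-NAME replicates 2, 3, 4 and 5. With the replicate block the count was 0, with 36 higher and 940 lower at an unadjusted p under 0.05. The labels do not say that a number is shared between groups. Deviations of same-numbered libraries correlated at -0.14, 0.34, -0.09, -0.11 and -0.37, and only replicate 2 correlated best with its own number. Such correlations cannot exclude a pairing by number, which is thus not known. Of 44 genes with a difference in the tables, 41 kept their direction under each alternative that gave a value for them, 21 for most and 20 for the rest. Other filters, the 10 libraries alone, robust variance, the term for library numbers and the replicate block leave a gene's difference unchanged. Their agreement was therefore fixed in advance, and only the remaining alternatives could turn a direction. Many of these genes were named for a small p or a lack of overlap in these same libraries. A kept direction is thus no independent support for them. The 3 that turned were Hspb1 at -0.047 and Rps27a at 0.031 without the Timd4 libraries, and Cd79a at 0.013 on the median of ratios, 0.032 with voom and 0.16 without the Timd4 libraries. The cause was not tested. Of 53 list medians 7 moved by more than the spread between libraries under at least 1 alternative. Genes with few reads, such as Gm23054 and Jchain, are limited by depth, and the intervals of small counts cover counting error only.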

Other observations

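Major urinary protein genes, made mainly in the liver of mice, appeared in these blood libraries. Summed, they reached 41.6, 5.69, 131, 58.7 and 13.1 TPM in chow replicates 1 to 5 and 6.42, 2.57, 9.76, 8.48 and 131 TPM in HFD+L-NAME replicates 1 to 5. Chow replicate 3 and HFD+L-NAME replicate 5 held the most, and these are the 2 libraries with the lowest share of TPM in protein-coding genes. All 14 tested members lay below 0, beside 82.1% of all tested genes, with 0 at an unadjusted p under 0.05 by limma. Their median was -0.69 beside -0.29, and -1.58 beside 0.13 without the Timd4 libraries. Leaving those out removes HFD+L-NAME replicate 5, the only high library of its group, while chow replicate 3 stays. The genes are near-identical copies, so that values of single members are uncertain.

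The immediate early gene Jund, a subunit of the AP-1 transcription factor, was at 1998, 393, 883, 384 and 237 TPM in chow and at 257, 382, 198, 2075 and 504 TPM in HFD+L-NAME. Chow replicate 1 and HFD+L-NAME replicate 4 were high in their groups, as they were for Fos and Tnf. Of 19 genes on the immediate early list 3 lay above 0, beside 17.9% of all tested genes. By limma, 0 of them had an unadjusted p under 0.05.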
